A study of Homo sapiens with 6 samples.

Results

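SOCS2, GRB10, IGFBP1 and LIN28B are 4 genes that restrain or tune growth hormone, insulin and insulin-like growth factor (IGF) signalling, and they are described here in human liver cancer cells depleted of a long noncoding RNA. They were chosen by name and are 4 of the 1998 genes in the authors' deposited table. HepG2, a human hepatoblastoma-derived line that keeps many hepatocyte functions, was transfected with an siRNA against H19 (siH19, 3 libraries) or with a control siRNA (siCon, 3 libraries). Both groups were cultured alike and harvested after 48 h. H19 is an imprinted, mostly fetal transcript made next to the IGF2 gene, and the comparison asks which hepatic transcripts depend on it. The level of H19 itself was not analysed here, and siH19 is used as the name the labels give.

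Growth hormone acts on the liver through its receptor, the kinase JAK2 and the transcription factor STAT5, and STAT5 switches on SOCS2, which then restrains the receptor. Insulin and the IGFs act through related receptor kinases that signal by PI3K, AKT and mTOR. GRB10 binds these receptors and inhibits them, while IGFBP1 is a secreted protein that binds IGFs in the blood and is shut off by insulin in hepatocytes. LIN28B is an RNA-binding protein of fetal liver and many liver cancers that blocks the maturation of let-7 microRNAs.

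The 4 genes did not move as one group. Both intracellular feedback inhibitors were higher in siH19 cells: in the authors' deposited table SOCS2 had a log2 fold change of 1.40 ± 0.17 (SE) and GRB10 one of 0.62 ± 0.13. The secreted inhibitor IGFBP1 was lower, at -1.19 ± 0.12 in the authors' deposited table. LIN28B, the fetal growth gene, was higher by the smallest step of the 4, at 0.26 ± 0.08 in the authors' deposited table. All 4 were called as changed by the authors at an adjusted p under 0.05, and so was 100% of the table, since it holds called genes only. Of all listed genes 44.7% were higher and 55.3% lower in siH19. SOCS2 and IGFBP1 changed at least 2-fold, as did 4.15% of all listed genes. Relative to the median of the table, which was -0.27, SOCS2 stood at 1.67 and remained past 2-fold, while IGFBP1 stood at -0.92 and was no longer past it. SOCS2, IGFBP1 and GRB10 also passed an adjusted p of 0.01, as did 64.8% of all listed genes. The 4 genes were chosen with these results known, so their shares support nothing beyond the values themselves.

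Each group has 1 combined value, values of single libraries cannot be shown, and whether the libraries of both groups overlap was not analysed here. Its mean normalized counts ran from 12.32 to 240657 per gene, with a median of 640. Of 16 hepatocyte markers, 14 were listed, ALB, APOB, TTR and HNF4A among them. All 14 were lower in siH19, between -0.88 and -0.33 (log2 fold change) in the authors' deposited table, and their normalized counts summed to 375731 in siH19 against 582466 in siCon. Of 19159 coding genes with an annotated 3' untranslated region, 1883 were listed, and an unlisted gene may be unexpressed or not called. Other listed markers were 1 of 7 (bile duct), 1 of 7 (stellate cells), 1 of 6 (endothelium) and 2 of 6 (blood). Of these, 4 were lower in the authors' deposited table, by as much as many hepatocyte markers or more: the stellate cell marker ACTA2 at -0.83 ± 0.11, the endothelial marker LYVE1 at -0.98 ± 0.20, and the blood markers CD68 at -1.21 ± 0.11 and LYZ at -0.64 ± 0.08. The bile duct marker SPP1 was higher, at 0.53 ± 0.09 in the authors' deposited table. HepG2 is a cell line, so these marker names do not show that stellate, endothelial or blood cells were present. In bulk RNA, fewer cells of a state and less RNA per cell cannot be told apart.

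**Figure D1:**
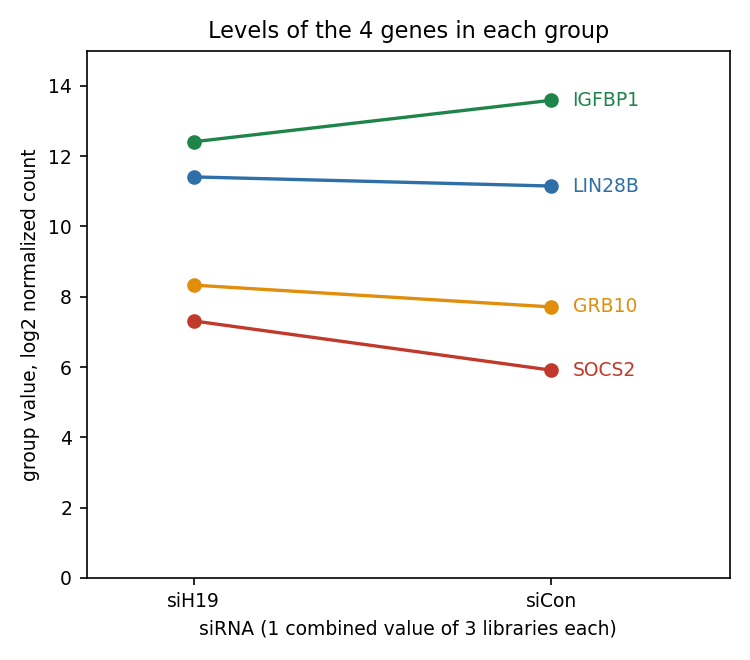
Group values of the 4 genes, on a log2 scale of normalized counts, with siH19 left and siCon right. Each point is 1 combined value of 3 libraries. SOCS2, GRB10 and LIN28B stand higher in siH19, and IGFBP1 stands lower, at 12.41 against 13.59.

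SOCS2 encodes the adaptor of a ubiquitin ligase that is recruited to the activated growth hormone receptor, and mice that lack it overgrow. Its group value in the authors' deposited table was 7.31 in siH19 and 5.91 in siCon on the log2 scale, which is 159 against 60.1 normalized counts. The fold change was 2.64, with a 95% interval of 2.09 to 3.32 from the authors' SE, and the adjusted p was written as 0, below 1e-06. SOCS2 therefore stood at more than double its control level, and the interval lies above a 2-fold change. Changes of at least 2-fold made up 1.75% of the table on the higher side, and SOCS2 had the 4th highest log2 fold change of all 1998 genes. Among the 179 listed genes within 1.5 times its mean count, only 2 had a fold change as large in either direction, and the median absolute log2 fold change there was 0.61.

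The SOCS2 value rests on few reads. Its mean normalized count was 109.24 in the authors' deposited table, and 88.4% of the listed genes, SOCS2 included, had a mean at least as high. Counting error alone would give an SE of 0.126 over 3 libraries a group, if 1 normalized count stood for about 1 read, and the authors' SE of 0.17 was 1.35 times that. The listed genes of like level had authors' SEs of 0.15 to 0.20, so the SE of SOCS2 lay within their range. Without values per library, this cannot show whether its replicates varied as theirs did. An antisense gene, SOCS2-AS1, overlaps 1955 bases of the SOCS2 gene span on the opposite strand, and reads of the pair could be told apart only by a count that uses strand, which the sources used here do not state.

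GRB10 encodes an adaptor that binds the activated insulin and IGF1 receptors, blocks their signalling and is itself stabilised by mTOR. GRB10 stands on the list of imprinted genes used here, and its imprinting in these cells was not tested. In the authors' deposited table its log2 group value was 8.33 in siH19 and 7.71 in siCon, which is 322 against 209 normalized counts. GRB10 was 1.54-fold higher in siH19, with a 95% interval of 1.29 to 1.83 and an adjusted p of 2.5e-05 in the authors' deposited table. This change was an ordinary one for the table: 24.4% of the listed genes had an absolute log2 fold change at least as large, as did 107 of the 354 listed genes of like level. The authors' SE of 0.13 equalled the median SE of those 354 genes and was 1.76 times the counting error.

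IGFBP1 encodes a hepatocyte protein that holds IGFs in complexes, and its transcription is raised by FOXO factors and repressed by insulin. It was the most abundant of the 4 transcripts. In the authors' deposited table its log2 group value was 12.41 in siH19 and 13.59 in siCon, which is 5442 against 12331 normalized counts. IGFBP1 was 2.28-fold lower in siH19, with a 95% interval of 1.94 to 2.69, so the lower bound lies just under a 2-fold change. Its adjusted p was written as 0 in the authors' deposited table, and its fold change was the 20th lowest of 1998. Falls of at least 2-fold made up 2.40% of the table.

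Among highly expressed genes the IGFBP1 change stood near the edge. Of the 60 listed genes within 1.5 times its mean count, 1 had an absolute log2 fold change as large, and their median was 0.36. Of those 60 genes, 42 were lower and 18 higher in siH19. The authors' SE for IGFBP1, 0.12, was the upper end of the SEs in that set, which ran from 0.07 to 0.12 with a median of 0.08. The 14 listed hepatocyte markers were lower in the same cells, and their part in the IGFBP1 value was not tested.

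LIN28B showed a small difference at a high level. Its log2 group value in the authors' deposited table was 11.41 in siH19 and 11.15 in siCon, which is 2721 against 2272 normalized counts. The fold change was 1.20, with a 95% interval of 1.07 to 1.33, and the adjusted p in the authors' deposited table was 0.0155. LIN28B lay near the smallest changes that were called: 94.3% of the listed genes had an absolute log2 fold change at least as large, as did 245 of the 288 listed genes of like level. With a threshold of 0.01 on the adjusted p it was no longer called. LIN28B-AS1 overlaps 4832 bases of the LIN28B gene span on the opposite strand, with the same doubt over strand as for SOCS2.

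**Figure D2:**
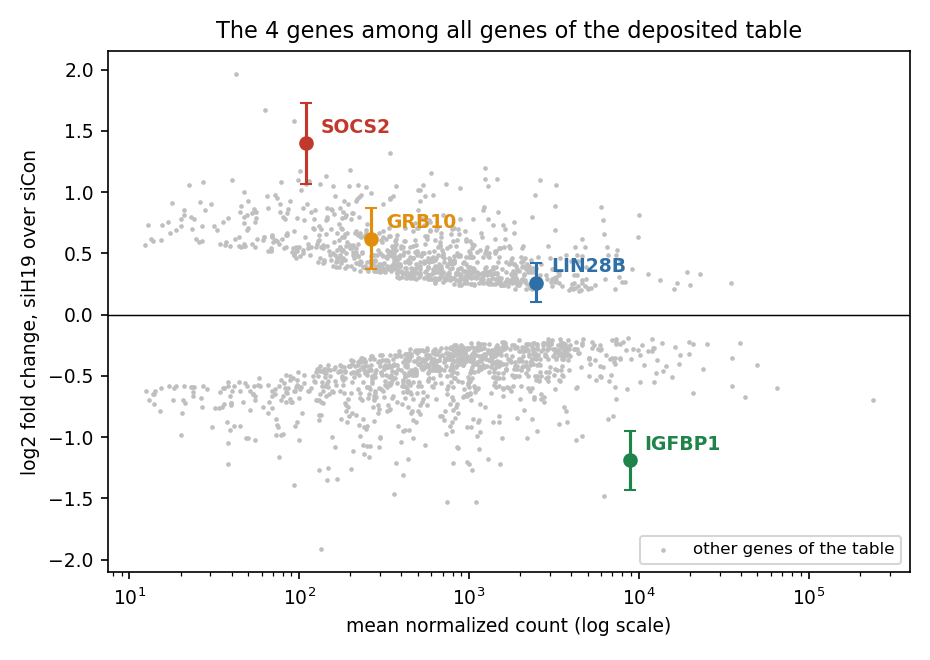
Log2 fold change of siH19 over siCon against the mean normalized count (log scale) for the 1998 genes of the deposited table. Grey points are the other genes, and bars on the 4 genes are 95% intervals from the authors' SE. SOCS2 at 1.40 and IGFBP1 at -1.19 stand at the outer edge for their level, GRB10 at 0.62 lies within the cloud and LIN28B at 0.26 lies at its inner edge.

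Set against each other, the 4 fold changes were graded. SOCS2 exceeded GRB10 by 0.78 on the log2 scale, with an SE of 0.21 and a 95% interval of 0.36 to 1.20 if the errors of both genes are independent. GRB10 exceeded LIN28B by 0.36, with an interval of 0.06 to 0.66 under the same assumption. SOCS2 exceeded LIN28B by 1.14 (interval 0.77 to 1.51). The distance to IGFBP1 was 2.59 for SOCS2 (SE 0.21), 1.81 for GRB10 (SE 0.18) and 1.45 for LIN28B (SE 0.14). All 6 pairs come from the same 6 libraries, so these intervals and SEs are a description and carry no p-value.

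Levels between genes can be set side by side per length. Per kilobase of its longest transcript, IGFBP1 had 3290 normalized counts in siH19 and 7460 in siCon. LIN28B had 494 in siH19 and 413 in siCon per kilobase, GRB10 had 59.3 in siH19 and 38.6 in siCon, and SOCS2 had 42.5 in siH19 and 16.1 in siCon. The order was therefore IGFBP1, LIN28B, GRB10 and SOCS2 in both groups. The range narrowed in siH19: IGFBP1 stood 77.5-fold above SOCS2 there, against 463-fold in siCon, and 6.66-fold above LIN28B, against 18.1-fold in siCon. This narrowing restates the fold changes given above, since each length is the same in both groups. GRB10 and SOCS2 were closer than any other pair, at a ratio of 1.39 in siH19 and 2.39 in siCon. With coding length in place of transcript length their ratio was 0.638 in siH19 and 1.09 in siCon, so the order of these neighbours in siH19 is not settled.

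**Figure D3:**
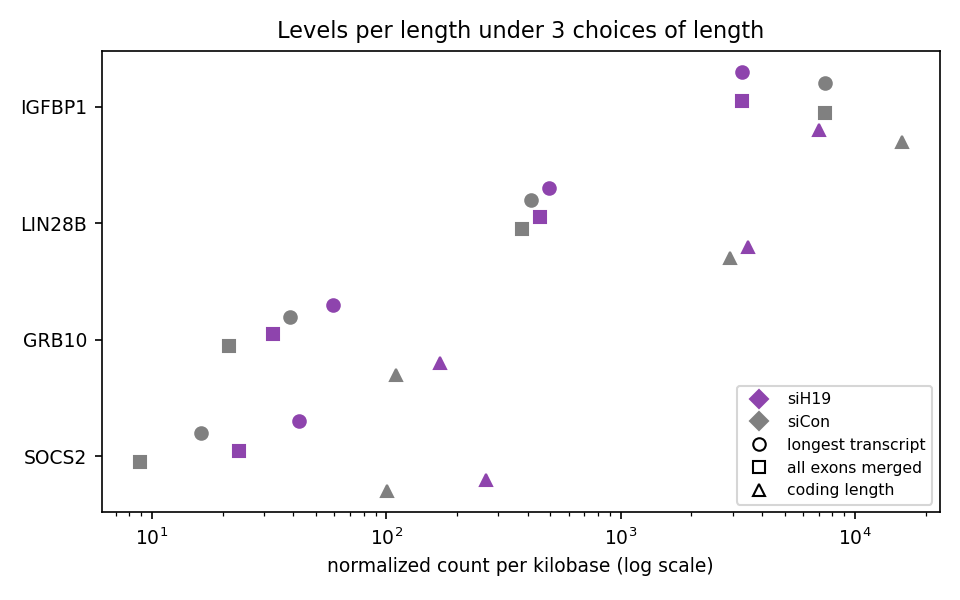
Normalized counts per kilobase (log scale) of the 4 genes in siH19 (purple) and siCon (grey), divided by the longest transcript (circles), all exons merged (squares) or coding length (triangles). IGFBP1 and LIN28B keep the top places under each choice, and GRB10 and SOCS2 lie within each other's range.

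LIN28B is both an inhibitor and a target of let-7, a pair of roles that forms a mutual brake, and H19 is known to bind let-7. The let-7 family shares the seed, bases 2 to 8 of the mature strand, that pairs with target transcripts. RefSeq lists 9 mature names with the same seed, and 4 of them are shown because they differ in the rest of the strand while the seed, in capitals, stays the same.
hsa-let-7a-5p: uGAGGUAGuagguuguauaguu
hsa-let-7d-5p: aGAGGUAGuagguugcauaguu
hsa-let-7g-5p: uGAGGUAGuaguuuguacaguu
hsa-miR-98-5p: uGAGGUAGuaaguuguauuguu

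The match to this seed in a transcript is CTACCTC, searched on the sense strand of annotated 3' untranslated regions (UTRs). The longest annotated LIN28B 3' UTR, of 4549 bases on chromosome 6, held 4 matches, which start at bases 44, 2471, 2653 and 4092 after the stop codon. They are shown with the match in capitals, 5′ to 3′ on the plus strand of GRCh38, at chr6:105078817-105078843, chr6:105081244-105081270, chr6:105081426-105081452 and chr6:105082865-105082891.
LIN28B match 1: gttgcaaagtCTACCTCatgcaagtat
LIN28B match 2: atgatagtaaCTACCTCtgagtttgac
LIN28B match 3: cagcaaaaggCTACCTCatagttgata
LIN28B match 4: atggtgttgaCTACCTCttgaatcaca

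Matches 1 and 3 are followed by an A, the base that lengthens a seed match to its strongest form. Of 1570 genes with a longest 3' UTR of 0.8 to 1.25 times this length, 23.8% held at least 1 match and 0.191% held at least 4. LIN28B itself is counted in both shares. The longest 3' UTRs of SOCS2 (3000 bases), GRB10 (2889 bases) and IGFBP1 (577 bases) held 0 matches, where 14.8%, 14.4% and 3.81% of genes with UTRs of like length held at least 1. A match is a stretch of letters and was not tested as a binding site, and mature let-7 was not measured in these libraries.

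**Figure D4:**
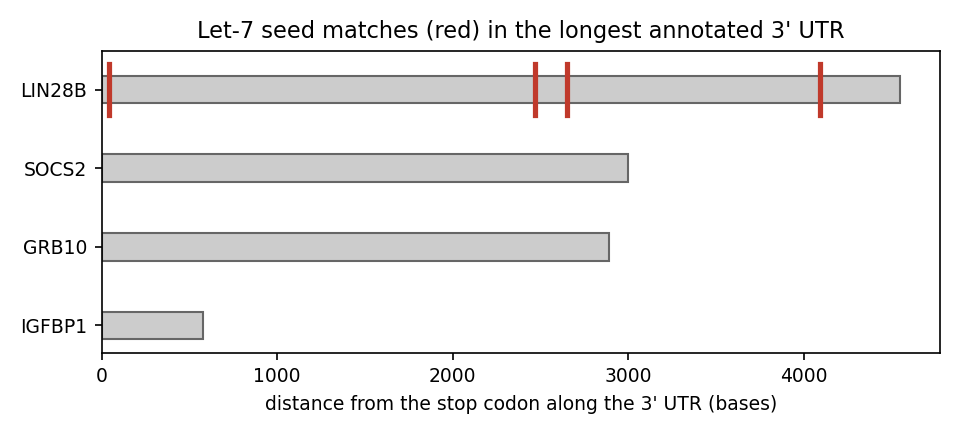
Longest annotated 3' UTR of each gene, drawn to scale in bases from the stop codon, with let-7 seed matches as red bars. LIN28B carries 4 matches over 4549 bases, and SOCS2, GRB10 and IGFBP1 carry 0.

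The other listed genes with as many let-7 matches did not share the direction of LIN28B. At least 4 matches were held by 4 listed genes, and LIN28B was the 1 of them that was higher, beside 44.7% of the table. In the authors' deposited table TRIM71, a ubiquitin ligase and let-7 target, stood at -0.52 ± 0.12, and NR6A1, a nuclear receptor of germ cells, at -0.38 ± 0.12. At least 2 matches were held by 36 listed genes, 17 higher and 19 lower, which is 47.2% higher beside 44.7% of the table. Of the 244 listed genes with at least 1 match, 119 were higher and 125 lower in siH19, which is 48.8% higher beside 44.7% of the table. Their median stood at -0.23 on the log2 scale. The 1639 listed genes without a match had 735 higher and 904 lower, with a median of -0.27. Both sets also differ in 3' UTR length, with a median of 3384 bases with a match and 1477 bases without, so they do not isolate the match.

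Other members of the LIN28 and let-7 machinery moved both ways. Of 30 symbols 4 were listed, 2 higher and 2 lower, which is 50.0% lower beside 55.3% of the table. Their median was 0.01, a value that rests on LIN28B, which was chosen with its value known. Without LIN28B the middle gene of the list is a lower one. Beside LIN28B, TNRC6A, a scaffold of microRNA silencing, was higher at 0.55 ± 0.10, and DICER1, which cuts let-7 precursors, was lower at -0.25 ± 0.08 in the authors' deposited table. Of 40 let-7 targets 10 were listed, 4 higher and 6 lower, which is 60.0% lower beside 55.3% of the table. These 10, with LIN28B among the higher ones, had a median of -0.25. Their ends were DNA2, a replication helicase, at 0.56 ± 0.13, THBS1, a matrix glycoprotein, at 0.55 ± 0.09, ARID3B, a DNA-binding protein, at 0.52 ± 0.13 and, on the lower side, ONECUT2, a liver transcription factor, at -0.69 ± 0.13, TRIM71 and IGF2BP2, an RNA-binding protein of fetal growth, at -0.32 ± 0.11, all in the authors' deposited table.

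LIN28B was the 1 listed oncofetal gene that was higher. Of 23 symbols 4 were listed, and the other 3 were lower, beside 55.3% of the table: AFP, the fetal serum protein, at -0.35 ± 0.07, IGF2BP2 and TRIM71 in the authors' deposited table. The median of these 4 was -0.33, against -0.27 for the whole table. AFP had a normalized count of 31216 in siH19 against 39787 in siCon.

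SOCS2 had 1 listed relative of its own family. Of 8 SOCS genes, SOCS4, which targets the EGF receptor, was the other listed member, with 626 normalized counts in siH19 against 380 in siCon and a log2 fold change of 0.71 ± 0.11 in the authors' deposited table. Other genes of the growth hormone axis were listed beside 1883 of 19159 coding genes with an annotated 3' UTR. An unlisted gene may be unexpressed or not called. Of 20 receptor, JAK and STAT symbols 2 were listed, IL6ST, the shared receptor of interleukin 6 cytokines, at 0.88 ± 0.08, and PRLR, the prolactin receptor, at -0.48 ± 0.15 in the authors' deposited table. Of 14 growth hormone responsive liver genes 3 were listed, and beside SOCS2 both were lower in the authors' deposited table: BCL6, a repressor, at -0.58 ± 0.10, and ACOX2, a peroxisomal oxidase, at -0.70 ± 0.13. SOCS2 was thus the 1 listed gene of these 14 that was higher, and 66.7% of the 3 were lower beside 55.3% of the table. NUDT4, a phosphatase of inositol pyrophosphates, is the third coding gene on 1 side of SOCS2, 162 kb away on the same strand in GENCODE 29, and was also higher, at 0.78 ± 0.18 in the authors' deposited table. It has a near-identical copy elsewhere in the genome, so its count is uncertain.

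IGFBP1 and its chromosomal neighbour IGFBP3 were both lower. IGFBP3, the main IGF carrier of serum, is the nearest coding gene on 1 side of IGFBP1, 18.6 kb away and on the opposite strand of chromosome 7 in GENCODE 29. It had 105 normalized counts in siH19 against 172 in siCon, with a log2 fold change of -0.72 ± 0.15 in the authors' deposited table. IGFBP4, which also sequesters IGFs, was higher, at 0.54 ± 0.12 in the authors' deposited table. These were the 3 listed genes of 15 IGF binding protein and protease symbols, 66.7% lower beside 55.3% of the table. Their median, with IGFBP1 included, was -0.72. IGFBP1 was chosen with its value known, and without it IGFBP3 and IGFBP4 went opposite ways. Of 7 ligands and receptors of insulin and the IGFs, 0 were listed, which does not show that they were unchanged.

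GRB10 and its neighbour DDC moved in opposite directions. DDC, which makes dopamine and serotonin from their precursors, lies 24.6 kb from GRB10 on the same strand of chromosome 7 in GENCODE 29. DDC had 224 normalized counts in siH19 against 519 in siCon, and its log2 fold change was -1.21 ± 0.11 in the authors' deposited table, opposite in sign to that of GRB10. Among 46 imprinted symbols 8 were listed, 4 higher and 4 lower, which is 50.0% lower beside 55.3% of the table. Their median was -0.06, a value that rests on GRB10, which was chosen with its value known. Without GRB10 the middle gene of the list is a lower one. GRB10 was the highest of the 8. The others on the higher side in the authors' deposited table were TP73 (0.56 ± 0.21), ZDBF2 (0.51 ± 0.17) and PPP1R9A (0.28 ± 0.08), and the lower ones beside DDC were SLC22A3, an organic cation transporter (-1.06 ± 0.13), SLC38A4, an amino acid transporter (-0.75 ± 0.21), and BLCAP (-0.41 ± 0.10).

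SOCS2 and GRB10 belong to a wider set of signal inhibitors that was split. Of 30 inhibitors of insulin and growth factor receptor signalling 9 were listed. Of these 9, 5 were higher and 4 lower, which is 44.4% lower beside 55.3% of the table. Their median of 0.49 rests on SOCS2 and GRB10, which are among the higher ones and were chosen with their values known. The rest of the list had 3 higher and 4 lower, so its middle gene was a lower one. SOCS2 was the highest, followed in the authors' deposited table by DUSP4, a MAP kinase phosphatase, at 0.83 ± 0.21, and GRB10. The inositol phosphatases INPP5D (0.53 ± 0.10) and INPPL1 (0.49 ± 0.13) were also higher in the authors' deposited table. The lower side in the authors' deposited table included LRIG1, which promotes loss of growth factor receptors, at -0.75 ± 0.12, DUSP6 at -0.45 ± 0.08, and PHLPP1, an AKT phosphatase, at -0.32 ± 0.11. Of 15 receptor substrates and adaptors 2 were listed, SHC1 at 0.43 ± 0.09 and FRS2 at -0.31 ± 0.11 in the authors' deposited table.

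On a list that joins FOXO factors with liver genes repressed by insulin, IGFBP1 was 1 of 7 lower members. Of 19 symbols 8 were listed, and 87.5% of these were lower beside 55.3% of the table, with a median of -0.82 against -0.27. This share and median include IGFBP1, which was chosen with its value known. The hepatocyte markers moved the same way, 14 of 14 lower with a median of -0.59, and their part in this count was not tested. G6PC, which releases glucose, had 56.1 normalized counts in siH19 against 211 in siCon, at -1.91 ± 0.17 in the authors' deposited table, and was the 1 member with a larger fall than IGFBP1. The others on the lower side in the authors' deposited table were APOC3 (-0.92 ± 0.13) and MTTP (-0.88 ± 0.09) of lipoprotein metabolism, the transcription factor KLF15 (-0.76 ± 0.19), the stress protein SESN3 (-0.62 ± 0.18) and PCK1 of gluconeogenesis (-0.50 ± 0.19). FOXO3, a transcription factor of the class that activates IGFBP1, was the 1 higher member, at 0.75 ± 0.11 in the authors' deposited table.

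Listed genes of the PI3K, AKT and mTOR pathway were mostly lower, and a link to GRB10 or SOCS2 was not tested. The list joins activators and inhibitors of the pathway, and signalling itself was not measured. Of 35 symbols 8 were listed, 1 higher and 7 lower, which is 87.5% lower beside 55.3% of the table, with a median of -0.46 against -0.27. In the authors' deposited table the lower ones ran from the kinase SGK1 (-0.65 ± 0.09) and the PI3K subunit PIK3R2 (-0.63 ± 0.12) through SESN3, EIF4EBP2 (-0.48 ± 0.13), RPS6KB2 (-0.44 ± 0.12) and TBC1D1 (-0.37 ± 0.09) to the mTOR activator RHEB (-0.26 ± 0.09). TBC1D7, a subunit of the complex that inhibits RHEB, was higher at 0.55 ± 0.17 in the authors' deposited table. Over all 13 lists, 48 genes other than the 4 described were listed, of which 16 were higher and 32 lower, a share of 66.7% lower beside 55.3% of the table.

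**Figure D5:**
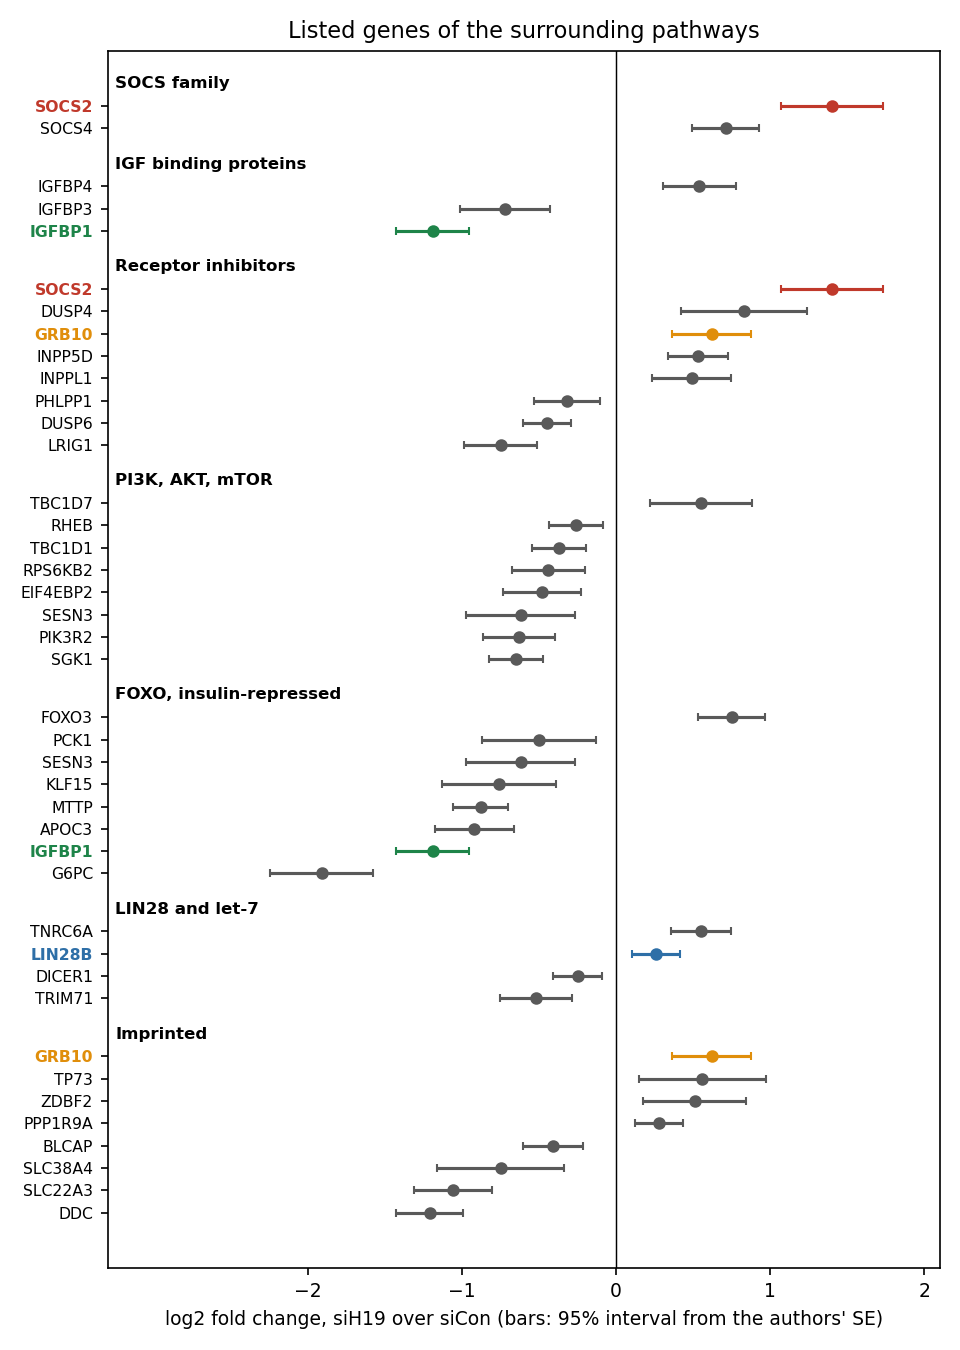
Log2 fold changes of siH19 over siCon for the genes named in 7 of the 13 lists, with 95% intervals from the authors' SE. SOCS2, GRB10, LIN28B and IGFBP1 are coloured, and a gene in several lists is drawn in each. SOCS2 at 1.40 is the highest point and G6PC at -1.91 the lowest.

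Some listed genes came close to the 4 in both group values, by Euclidean distance over the 2 log2 normalized counts and not per length. LIN28B had the closest partners, RCC2 at a distance of 0.000 and CASC4 at 0.028, which changed by 0.27 ± 0.08 and 0.22 ± 0.08 in the authors' deposited table. GRB10 was nearest to ZNF48 (distance 0.036) and PCDHB2 (0.100). SOCS2 had no close match, with PXYLP1 at 0.187 and KRT80 at 0.250, which the authors' deposited table gives at 1.17 ± 0.18 and 1.10 ± 0.19 on the log2 scale. Of the 4, IGFBP1 was the most distant from its nearest listed genes, NQO1 at 0.404 and the fibrinogen chain FGA at 0.442. Both had smaller falls than IGFBP1 in the authors' deposited table, -0.61 ± 0.09 for NQO1 and -0.69 ± 0.08 for FGA.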

How the data were processed

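Gene expression was measured by RNA sequencing of HepG2 cells in 3 siH19 and 3 siCon libraries, grouped by their titles and harvested at 48 h. Libraries were made from total RNA depleted of ribosomal RNA with a strand-specific kit and sequenced as paired reads, per the labels' protocols. STAR 2.5.0a, Cufflinks 2.2.1, DESeq2 1.0.0 and the build hg19 are named per the submitters' processing notes. No source used here gives the role of each tool, the gene annotation, the use of strand in counting or any shrinkage of fold changes.

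The authors deposited 1 table with 1 combined value per group. Per the file headers it gives log2 counts for siCon and siH19, a log2 fold change with its SE, and a q value, which is an adjusted p-value. The deposited mean count is a normalized signal with decimals. Every q value was under 0.05, so the table holds called genes only. A q value written as 0 lies below the smallest printed value, 1e-06. Fold changes recomputed from both group values lay within 0.01 of the deposited ones. Depth per library is unknown. Columns of other series' samples numbered 0. Nothing in the labels shows separate cultures behind the libraries, so the authors' SE and adjusted p may measure technical spread only.

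Computed here with Python 3.11.15, pandas 2.3.3 and scipy 1.17.1 were the linear group values, 95% Wald intervals from the authors' SE, differences between genes, levels per kilobase, list counts and let-7 seed matches. GENCODE release 29 (GRCh38) gave lengths and 3' UTRs, and RefSeq (GRCh38.p14) gave miRNA sequences. Both are on another build than the one in the submitters' notes. The level of each gene per kilobase used its longest transcript. No p-value was computed here. The site search and the nearest-gene search recovered items planted in simulated data that were simpler than real UTRs and deposited values. This checks the code only.

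The members, the 13 pathway lists and the alternatives were chosen with earlier results of these data known. Named genes were the 4 members, all table genes of each list with up to 8 of them, otherwise the 3 highest and 3 lowest fold changes, and the 2 genes nearest to each member over both log2 group values. The genes named for their number of let-7 matches, the neighbours on the chromosome, and further genes of the longer lists were chosen after their values were seen. Some genes that the counts include are not reported here by name.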

Additional observations from a re-analysis of the deposited data

How the results depend on the processing

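The direction of all 4 genes was kept under the alternatives run: the difference of the deposited group values, and centring on the median of the table. Neither alternative could have reversed a direction, so they do not test it. The group values differ by the deposited fold change to within 0.01. Centring on a negative median raises every fold change, and by less than the fall of IGFBP1. That median was -0.27 on the log2 scale, over called genes only, and relative to it the fold changes were 1.67 for SOCS2, 0.89 for GRB10, 0.53 for LIN28B and -0.92 for IGFBP1, which was then no longer past a 2-fold change. At an adjusted p threshold of 0.01 the LIN28B call was lost, at its unchanged log2 fold change of 0.26. That threshold kept 64.8% of the table.

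Levels per kilobase moved with the length used. With all exons merged the mean level was 16.1 for SOCS2, 27.1 for GRB10 and 415 for LIN28B. With the coding length it was 183 for SOCS2, 140 for GRB10, 3210 for LIN28B and 11400 for IGFBP1, so that SOCS2 and GRB10 changed places. Among genes at or above the table's median level, 9 pathway genes were higher and 15 lower, against 19 higher and 33 lower at any level. The shortest annotated 3' UTR of LIN28B held 1 let-7 match, in an alternative chosen after seeing the data. The low counts of SOCS2 and the missing values per library limit what can be said of its spread. No paired analysis was possible because the table holds 1 combined value per group, and for the same reason no replicate could be left out.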
